A study of Homo sapiens with 13 samples.

Results

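ATF2, the transcription factors related to it and the stress kinases that phosphorylate them were followed on every array probe whose gene name was ATF1, ATF2, ATF6, ATF7, CREB1, CREM, JUN, MAPK8, MAPK9 or MAPK14. These 10 genes carried 15 of the 34127 probes of the array that were not controls, out of 25940 gene names. All 10 names are current symbols. The signal of 14 of the 15 probes stood well above background on all arrays of at least 1 group, and these 14 were tested. The remaining probe, that of ATF7, was not well above background on any of the 13 arrays and was not tested.

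ATF2 belongs to the basic leucine zipper (bZIP) family, whose members bind DNA as pairs. ATF2 becomes active when JNK or p38 kinases phosphorylate its N-terminal activation domain, and it then pairs with itself or with JUN on cAMP response elements and related AP-1 sites. ATF7 is its closest relative. CREB1, CREM and ATF1 form a separate bZIP subfamily that binds the same elements and is switched on by protein kinase A and other kinases through a serine in the kinase-inducible domain. ATF6 is a bZIP protein anchored in the endoplasmic reticulum, released by proteolysis when unfolded proteins accumulate. MAPK8 and MAPK9 encode the kinases JNK1 and JNK2, and MAPK14 encodes p38 alpha. Since the activity of these proteins is set largely by phosphorylation and cleavage, RNA levels give only their supply.

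CCRF-CEM is an established T lymphoblastic leukemia cell line. The parental line (CEM PA) was compared with a resistant line (CEM RES), obtained by growing the same cells in gradually increasing concentrations of FK866. The subline resistant to 100 nM was the one used. FK866 blocks NAMPT, the enzyme that recycles nicotinamide into NAD. Each line was treated for 48 h with 5 nM FK866 or with the solvent DMSO (mock), giving 3 arrays of CEM PA mock, 2 of CEM PA FK866, 4 of CEM RES mock and 4 of CEM RES FK866, described as biological replicates. CEM RES is 1 selected population and was kept in FK866 between experiments, so that its mock cells had met the drug earlier. All CEM RES arrays were scanned in 1 session and all CEM PA arrays in 2 others. The comparisons share arrays, CEM PA mock being in 3 of the 5, so their results are not independent. In every comparison between lines, line and scan session therefore cannot be told apart.

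Of the 43118 spots on each array that were not controls, 26457 to 33239 were well above background. All 9 T-lineage markers examined, CD3D and LCK among them, were well above background on all 13 arrays. So were CD79A, CD79B, CD14, ITGAM and KRT8, which are known as markers of other cell types, while EPCAM, CDH1 and COL1A1 were on none. CD79B had a mean log2 signal of 6.72 in CEM PA mock and 5.56 in CEM RES mock, and its part in the differences between lines was not tested. RNA came from whole cultures, in which a change in the RNA of each cell and a change in the number of cells of a kind cannot be told apart. The signal is given as log2 intensity after quantile normalization, and levels are compared only within a probe.

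Probes in coding exons of the genes with more than 1 probe are printed here to show which piece of the transcript each one reads. They are 60 bases long and are written 5′ to 3′ in the sense of the transcript, with hg19 positions. Capitals mark, in CREM probe 1, the codon of the serine that protein kinase A phosphorylates. The other sequences have no capitals.
ATF2 probe 1, chr2:175939463-175939522, minus strand: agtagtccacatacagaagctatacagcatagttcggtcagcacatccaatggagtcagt
ATF2 probe 2, chr2:175979469-175979528, minus strand: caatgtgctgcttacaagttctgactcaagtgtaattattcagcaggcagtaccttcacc
CREM probe 1, chr10:35467876-35468082, plus strand: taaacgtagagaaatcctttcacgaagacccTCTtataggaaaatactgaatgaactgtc
MAPK8 probe 1, chr10:49628233-49628292, plus strand: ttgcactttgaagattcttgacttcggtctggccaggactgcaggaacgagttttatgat
MAPK8 probe 2, chr10:49634025-49634084, plus strand: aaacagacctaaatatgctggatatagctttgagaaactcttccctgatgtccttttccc
MAPK9 probe 1, chr5:179669667-179669726, minus strand: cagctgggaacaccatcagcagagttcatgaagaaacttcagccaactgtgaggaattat

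Both ATF2 probes lie in coding exons: probe 1 in the stretch after the leucine zipper and probe 2 between the phosphorylated activation domain and the basic region. They are therefore readings of separate exons of the same transcript. MAPK8 probe 1 covers the start of the activation loop of the kinase. CREM probe 1 spans 207 genomic bases, so it crosses an exon junction. It covers the kinase-inducible domain, which the shorter repressor form of CREM, ICER, lacks.

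The first question was which members answered FK866 in drug-sensitive cells. The study had already named ATF2 among the regulators modulated by FK866 in parental cells, from these same arrays. The calls of ATF2 are therefore no separate result. In CEM PA, ATF2 rose about 2-fold on both of its probes, and 1 probe each of MAPK8 and MAPK9 rose by nearly as much. By the double threshold of the study (a log2 fold change beyond 0.75 in either direction and an unadjusted p under 0.05 in limma), 4 of the 14 tested probes were called, all 4 higher. Of all 22754 probes tested, 6.70% were called in either direction and 3.88% as higher. That is 882 probes higher and 642 lower, and under 75th percentile scaling 748 higher and 979 lower, with the same number of member calls. None of the 14 passed an adjusted p of 0.05 (limma, Benjamini-Hochberg over all probes), which 1.53% of all probes did, while 6 were under an unadjusted p of 0.05, against 14.4% of all probes. Their median log2 fold change was 0.25, against 0.00 over all probes, and 13 of the 14 were positive.

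**Figure D1:**
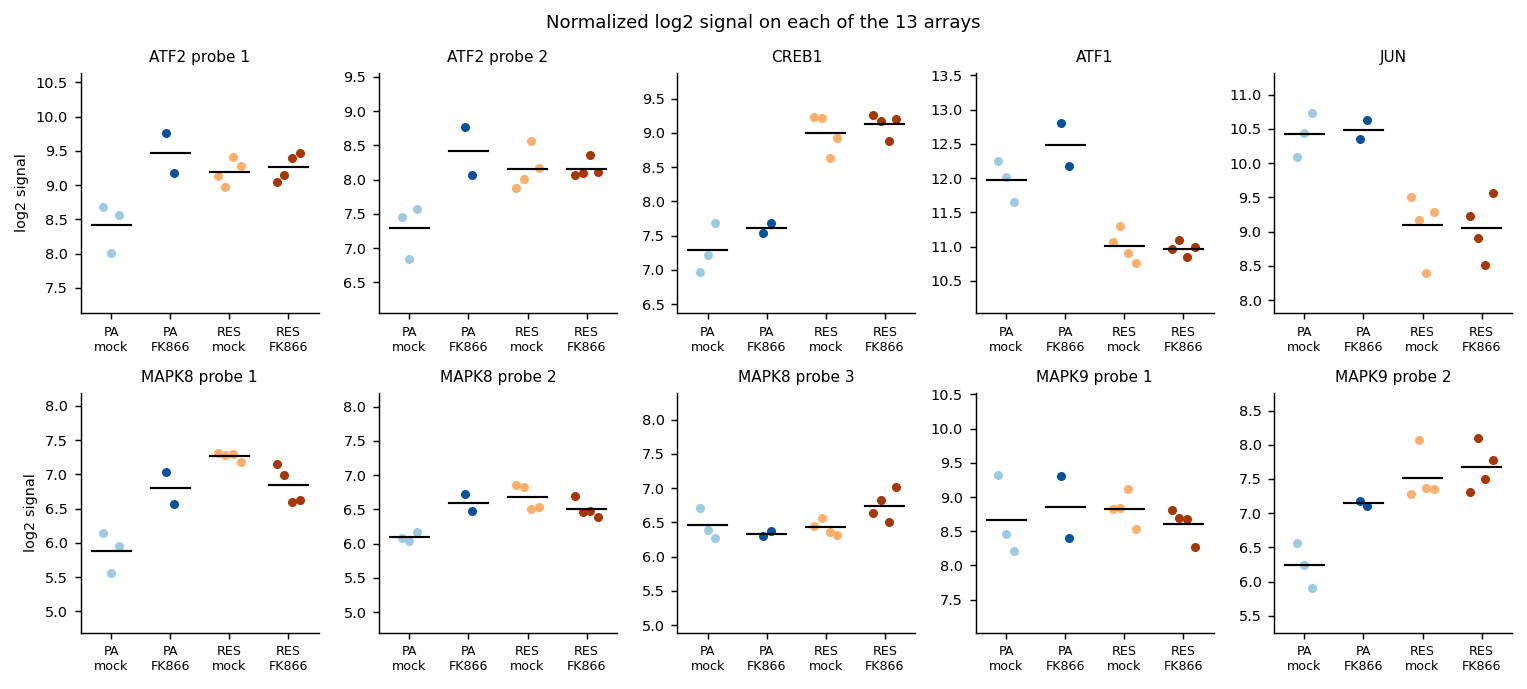
Normalized log2 signal (vertical axes, all of equal span) of 10 probes on each of the 13 arrays, by group. Points are single arrays and black bars are group means. Both ATF2 probes, MAPK8 probe 1, MAPK8 probe 2 and MAPK9 probe 2 show CEM PA mock below the other 3 groups, while CREB1, ATF1 and JUN separate the lines.

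ATF2 probe 1 read 8.67, 8.003 and 8.56 on the CEM PA mock arrays and 9.77 and 9.18 on the CEM PA FK866 arrays. Both treated arrays were above all 3 mock arrays. The log2 fold change was 1.06 (SE 0.25, 95% interval 0.52 to 1.60), a 2.08-fold rise, with a limma adjusted p of 0.0579. ATF2 probe 2 read 7.45, 6.85 and 7.57 in mock and 8.76 and 8.07 with FK866, again without overlap. Its log2 fold change was 1.13 (SE 0.27, 95% interval 0.54 to 1.72), with a limma adjusted p of 0.0635. Over the 5 CEM PA arrays the probes moved together, with Pearson's r = 0.99 as a description of arrays that span both groups. In CEM PA 5 of the 14 member probes had treated arrays above all mock arrays, as had 17.0% of all probes.

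The CEM PA arrays came from 2 scan sessions, each of which held both groups. ATF2 probe 1 was higher by 1.09 in the session with 1 array of each group and by 0.90 in the session with 1 treated and 2 mock arrays. For probe 2 the values were 1.32 and 0.87. Arrays with the same replicate number deviated together from their group means, and a fit with the replicate number as a block gave log2 fold changes of 1.13 and 1.27 for the ATF2 probes, with limma adjusted p of 0.0154 and 0.0143. Under that block 4 of the 14 probes passed the adjusted threshold, against none without it: both of ATF2, MAPK8 probe 1 (0.94, limma adjusted p = 0.0329) and MAPK9 probe 2 (0.74, limma adjusted p = 0.0464). In CEM PA this block rests on 2 pairs, since mock replicate 3 has no treated partner, and the fold changes are those found without that array. The arrays of replicate 1 are also the only pair of their scan session. With the scan session as a block 1 member passed the adjusted threshold, ATF2 probe 1 (0.98, limma adjusted p = 0.0488). A slide block is no further check in CEM PA, since only 1 slide held both groups. It compares 1 treated with 1 mock array and gave 1.09 for ATF2 probe 1. Without CEM PA FK866 replicate 1 the differences were 0.77 and 0.79 and still past the double threshold.

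In CEM RES no change of ATF2 passed the test under the same treatment. Probe 1 read 9.13, 8.97, 9.41 and 9.28 in mock and 9.05, 9.14, 9.40 and 9.48 with FK866. The groups overlapped over most of their range, and the log2 fold change was 0.07 (SE 0.19, 95% interval -0.35 to 0.49). Probe 2 read 7.88, 8.01, 8.56 and 8.17 in mock and 8.07, 8.10, 8.36 and 8.11 with FK866, with a log2 fold change of 0.00 (95% interval -0.46 to 0.46). These intervals leave out a rise of the size measured in CEM PA.

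None of the 14 member probes was called in CEM RES by the double threshold, which called 1.30% of all probes. Across the members the log2 fold changes ran from -0.43 to 0.32 with a median of -0.02, and 2 were under an unadjusted limma p of 0.05, both of MAPK8. No probe of the array passed the limma adjusted p in this comparison, and 5.15% of all probes were under an unadjusted p of 0.05.

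**Figure D2:**
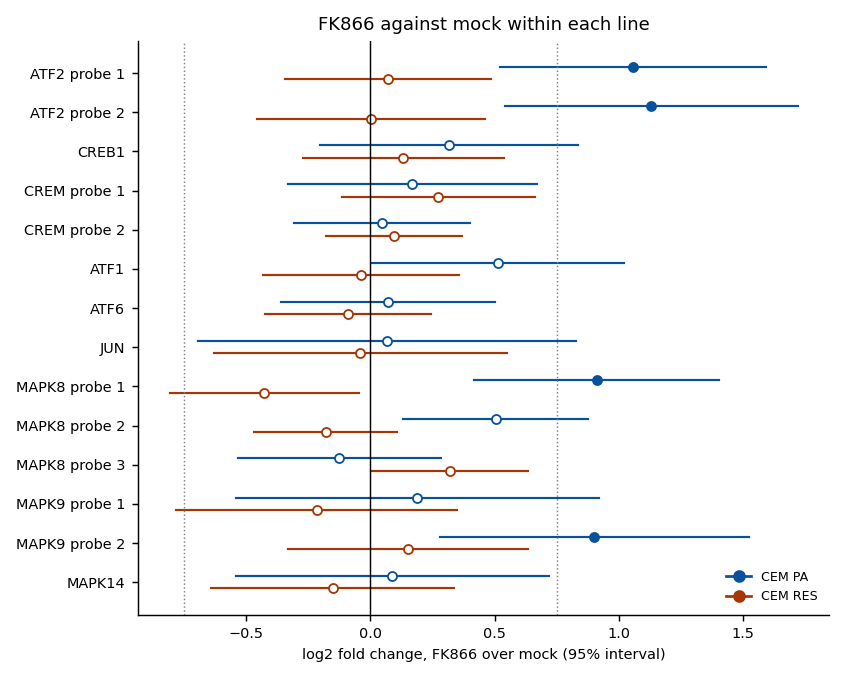
Log2 fold change of FK866 over mock (horizontal axis) with its 95% interval for the 14 tested probes, in CEM PA (blue) and CEM RES (brown). Filled points passed the double threshold and dotted lines mark 0.75 and -0.75. The 4 filled points, both ATF2 probes, MAPK8 probe 1 and MAPK9 probe 2, are all in CEM PA.

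The next question was whether the 2 lines differed in their response, which the interaction term of the same fit tests. For ATF2 the CEM RES response was lower than the CEM PA response by 0.99 on probe 1 (SE 0.31) and by 1.13 on probe 2 (SE 0.34), on the log2 scale. MAPK8 probe 1 had the largest difference of any member, -1.34 (SE 0.29). With normexp background correction (offset 50, which shrinks fold changes of dim probes) that difference was -0.73. It was -0.53 with the mean of the gene's probes, and both were under the fold limit. These 3 of 14 probes passed the double threshold, all lower, where 8.03% of all probes were called in either direction and 4.60% as lower (781 higher and 1047 lower, or 997 and 938 after scaling to the 75th percentile). Their limma adjusted p were 0.227, 0.206 and 0.0739, so none of the members passed that threshold, which 0.413% of all probes did, and 4 members were under an unadjusted p of 0.05, against 12.1% of all probes. With the replicate block the same 3 probes had differences of -1.06, -1.27 and -1.37 and adjusted p of 0.0379, 0.0313 and 0.0363. The ATF2 differences rested in part on 1 array: without CEM PA FK866 replicate 1 they were -0.70 and -0.78, with an unadjusted limma p above 0.05 on both, and 1 of the 14 members was called. Without CEM PA FK866 replicate 2, 5 were.

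In mock cells the lines themselves differed widely. The double threshold called 7 of the 14 member probes, with 5 of them higher in the resistant line and 2 lower, against 35.6% of all probes (18.4% higher and 17.2% lower). By the limma adjusted p 8 members passed, 6 higher and 2 lower, against 47.6% of all probes (24.9% higher and 22.7% lower). Scaling by the 75th percentile of each array, instead of quantile normalization, moved the median log2 difference of all probes from 0.04 to 0.17 in mock and from 0.06 to 0.20 with FK866. It turned 4185 higher and 3920 lower calls into 5249 and 3321 in mock, and 3453 and 3533 into 5152 and 3001 with FK866. Without CEM PA mock replicate 2, and in turn without CEM RES mock replicate 3, 5 passed the double threshold, as both ATF2 probes then fell under the fold limit.

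ATF2 was higher in CEM RES mock than in CEM PA mock by 0.78 on probe 1 (SE 0.21, limma adjusted p = 0.00801) and by 0.87 on probe 2 (SE 0.23, limma adjusted p = 0.00768). The lowest CEM RES mock array, 8.97 on probe 1, was above the highest CEM PA mock array, 8.67. The share of all probes with such a separation is not given. Without CEM PA mock replicate 2 the differences were 0.58 and 0.65, and without CEM RES mock replicate 3 they were 0.71 and 0.74, with adjusted p still under the threshold. When both lines had FK866, ATF2 differed by -0.21 (95% interval -0.72 to 0.30) and -0.26 (95% interval -0.82 to 0.30). On probe 1 the order of group means was CEM PA mock at 8.41 ± 0.36 (SD, n = 3), CEM RES mock at 9.20 ± 0.19 (SD, n = 4), CEM RES FK866 at 9.27 ± 0.20 (SD, n = 4) and CEM PA FK866 at 9.47 ± 0.41 (SD, n = 2). The last 3 did not differ beyond their spread.

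The ATF2 subfamily also holds ATF7. Its probe, at chr12:53909933-53909992 (hg19), read 0.95 to 2.11 on the log2 scale, not well above background on any array. No difference between groups is given for it.

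CREB1 had the largest line difference of the members. Its probe read 6.98, 7.22 and 7.69 in CEM PA mock, 7.54 and 7.68 in CEM PA FK866, 9.24, 9.21, 8.63 and 8.93 in CEM RES mock, and 9.27, 9.18, 8.88 and 9.21 in CEM RES FK866. All 8 CEM RES arrays were above all 5 CEM PA arrays. Here, and for the other members in comparisons between lines, the share of all probes that separate the lines this way is not given. Between lines in mock 47.6% of all probes passed the limma adjusted p. The log2 fold change between lines was 1.71 in mock (SE 0.20, limma adjusted p = 4.3e-05) and 1.52 with FK866 (SE 0.23, limma adjusted p = 0.000409), that is 3.26-fold and 2.88-fold. FK866 itself gave 0.32 in CEM PA (95% interval -0.21 to 0.84) and 0.13 in CEM RES (95% interval -0.27 to 0.54), neither past the test.

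ATF1, which can replace CREB1 in its pairs, went the other way. It read 12.25, 12.02 and 11.66 in CEM PA mock, 12.80 and 12.17 in CEM PA FK866, 11.07, 11.30, 10.91 and 10.76 in CEM RES mock, and 10.96, 11.09, 10.84 and 10.99 in CEM RES FK866. Here all 8 CEM RES arrays were below all 5 CEM PA arrays. ATF1 was lower in CEM RES by a log2 fold change of -0.97 in mock (SE 0.20, limma adjusted p = 0.00169) and -1.52 with FK866 (SE 0.22, limma adjusted p = 0.000364). Its FK866 response in CEM PA was 0.51 (95% interval 0.01 to 1.02), under the fold limit, and -0.04 in CEM RES. Without CEM PA FK866 replicate 2 the CEM PA value was 0.83 and past the double threshold.

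CREM, the third gene of the subfamily, passed neither threshold. Probe 1, over the kinase-inducible domain, had group means of 8.31 ± 0.36 (SD, n = 3) in CEM PA mock, 8.48 ± 0.26 (SD, n = 2) in CEM PA FK866, 8.73 ± 0.19 (SD, n = 4) in CEM RES mock and 9.005 ± 0.20 (SD, n = 4) in CEM RES FK866. Between lines the difference was 0.42 in mock and 0.53 with FK866. The latter had a limma adjusted p of 0.0802, and with the replicate block the difference was 0.62 and the adjusted p 0.0424. Probe 2, toward the end of the gene at chr10:35501242-35501301 (hg19), stayed between 9.05 and 9.48 on all 13 arrays, and its 5 log2 differences lay between 0.05 and 0.12.

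The signal of ATF6 stayed between 11.23 and 11.89 on all 13 arrays. Its log2 fold change was 0.07 with FK866 in CEM PA (95% interval -0.36 to 0.50), -0.09 in CEM RES (95% interval -0.42 to 0.24), and -0.04 and -0.20 between lines. None passed the test.

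**Figure D3:**
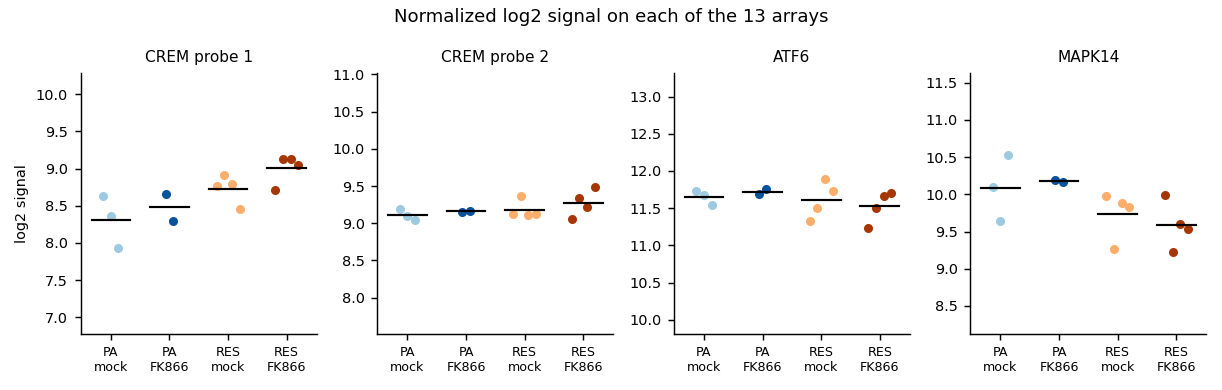
Normalized log2 signal (vertical axes, all of equal span) on each of the 13 arrays for the 4 probes of CREM, ATF6 and MAPK14, the tested genes with no probe past the double threshold in any comparison. Points are single arrays and black bars are group means. CREM probe 2 stays between 9.05 and 9.48 and ATF6 between 11.23 and 11.89.

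JUN, the partner of ATF2 and the main JNK substrate in AP-1, was lower in CEM RES. It read 10.10, 10.44 and 10.74 in CEM PA mock, 10.36 and 10.63 in CEM PA FK866, 9.51, 9.18, 8.39 and 9.29 in CEM RES mock, and 9.23, 8.90, 8.51 and 9.56 in CEM RES FK866. No CEM RES array reached the lowest CEM PA array. The log2 fold change was -1.33 in mock (SE 0.29, limma adjusted p = 0.00279) and -1.44 with FK866 (SE 0.33, limma adjusted p = 0.0055), and without CEM PA FK866 replicate 2 the latter was -1.31 with an adjusted p of 0.0559. FK866 changed JUN by 0.07 in CEM PA (95% interval -0.69 to 0.83) and -0.04 in CEM RES (95% interval -0.63 to 0.55), neither past the test.

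With both lines in FK866, CREB1, ATF1 and JUN were the 3 of 14 members past the double threshold, 1 higher and 2 lower, against 30.7% of all probes (15.2% higher and 15.5% lower). The same 3 passed the limma adjusted p, against 36.0% of all probes. With the replicate block CREM probe 1 (0.62) and MAPK14 (-0.70) passed the adjusted threshold too. Under 75th percentile scaling MAPK8 probe 3 (0.73) and MAPK9 probe 2 (0.70) passed it, and with array quality weights CREM probe 1 (0.52) and MAPK8 probe 3 (0.43), giving 5 members in each case.

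**Figure D4:**
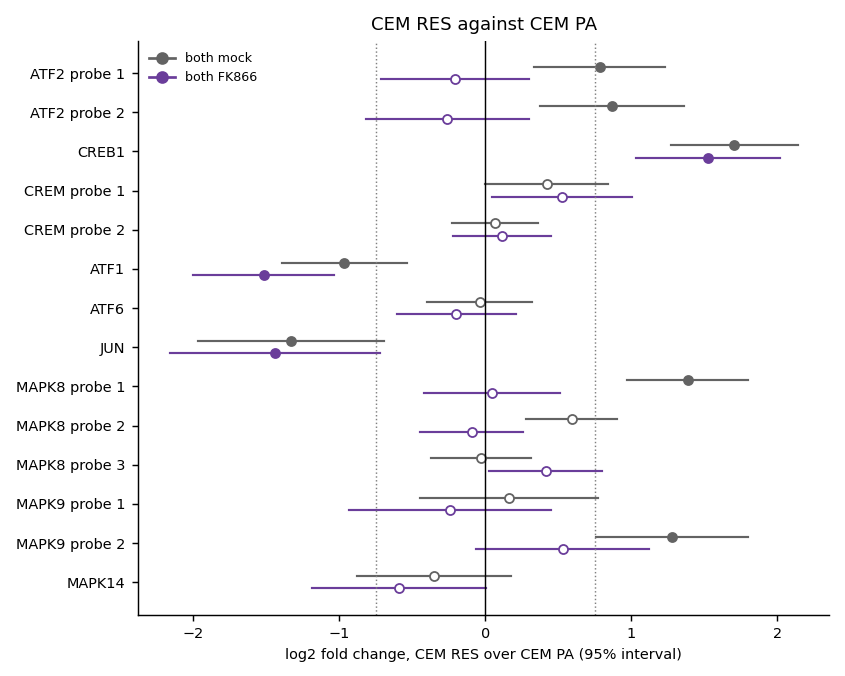
Log2 fold change of CEM RES over CEM PA (horizontal axis) with its 95% interval for the 14 tested probes, both mock (grey) and both with FK866 (purple). Filled points passed the double threshold and dotted lines mark 0.75 and -0.75. CREB1, ATF1 and JUN are filled in both, and both ATF2 probes, MAPK8 probe 1 and MAPK9 probe 2 only in mock.

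Of the kinases, MAPK8 (JNK1) moved on the probe over the activation loop. Probe 1 read 6.15, 5.56 and 5.95 in CEM PA mock, 7.03 and 6.56 in CEM PA FK866, 7.31, 7.29, 7.30 and 7.18 in CEM RES mock, and 7.15, 6.99, 6.60 and 6.63 in CEM RES FK866. In CEM PA the treated arrays were above the mock arrays, and in CEM RES they were below them, without overlap in either line. In CEM RES 1.74% of all probes had every treated array below every mock array. The log2 fold change was 0.91 in CEM PA (SE 0.23, limma adjusted p = 0.0704) and -0.43 in CEM RES (SE 0.18, limma adjusted p = 0.938). The CEM RES value was under an unadjusted p of 0.05 and did not pass the fold limit. In CEM PA the value was under the fold limit without CEM PA FK866 replicate 1 (0.68) and without CEM PA mock replicate 2 (0.749). It was also under that limit with normexp background correction (0.48) and with the mean of the gene's probes (0.43). The normexp offset of 50 is near the intensity of this probe and by itself shrinks its fold change. The probe was dim in CEM PA mock, with intensities of 47.0 to 51.0 before normalization.

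MAPK8 probe 2, also in the kinase-coding part, followed probe 1 at a smaller size: 0.50 with FK866 in CEM PA (95% interval 0.13 to 0.88) and -0.18 in CEM RES. Between lines in mock, probe 1 was higher in CEM RES by 1.39 (SE 0.19, limma adjusted p = 0.000125) and probe 2 by 0.59 (SE 0.14, limma adjusted p = 0.00493), the latter under the fold limit but past it, at 0.83, under 75th percentile scaling. With FK866 in both lines the differences were 0.05 and -0.09, the latter 0.18 after scaling to the 75th percentile. Probe 3, at chr10:49647005-49647064 (hg19) and annotated to another transcript, did not follow them. It gave -0.12 with FK866 in CEM PA, 0.32 in CEM RES (95% interval 0.00 to 0.64) and -0.03 between lines in mock, or 0.20 after scaling to the 75th percentile. With FK866 in both lines it was higher in CEM RES by 0.41 (95% interval 0.03 to 0.80, limma adjusted p = 0.0898). That difference was 0.73 under 75th percentile scaling (limma adjusted p = 0.00409). All CEM RES FK866 arrays were above both CEM PA FK866 arrays, and the share of all probes with that order is not given. Over the 13 arrays probe 1 correlated with probe 2 (Pearson's r = 0.90) and not with probe 3 (r = 0.05), a description over arrays of 4 groups.

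MAPK9 (JNK2) had the same kind of split. Probe 2, which is annotated to another transcript variant than probe 1 and lies at chr5:179673231-179673290 (hg19), read 6.56, 6.24 and 5.91 in CEM PA mock, 7.18 and 7.11 in CEM PA FK866, 7.28, 8.07, 7.37 and 7.35 in CEM RES mock, and 7.31, 8.10, 7.50 and 7.78 in CEM RES FK866. The CEM PA mock arrays were the lowest 3 of the 13, and the probe was dim there, with intensities of 45.8 to 81.5 before normalization. FK866 raised it by 0.90 in CEM PA (SE 0.29, limma adjusted p = 0.155), and the lines differed by 1.28 in mock (SE 0.24, limma adjusted p = 0.00103) and by 0.53 with FK866 (95% interval -0.06 to 1.12). In CEM PA the value was 0.74, under the fold limit, both with the replicate block and without CEM PA mock replicate 3. It was 0.44 with normexp background correction, whose offset shrinks fold changes of dim probes, and 0.62 with the slide as a block. Its response in CEM RES was 0.15 (95% interval -0.33 to 0.64).

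MAPK9 probe 1 gave no difference past the test: 0.19 with FK866 in CEM PA, -0.22 in CEM RES, 0.16 between lines in mock and -0.24 with FK866. Its CEM PA arrays spread widely, from 8.22 to 9.32, and split by scan session, with both arrays of 1 session at 9.31 and 9.32 and the other 3 at 8.22 to 8.46. MAPK14 (p38 alpha) gave 0.09 with FK866 in CEM PA (95% interval -0.54 to 0.72) and -0.15 in CEM RES (95% interval -0.64 to 0.34). Between lines the log2 fold change of MAPK14 was -0.35 in mock and -0.59 with FK866, neither past the test.

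Other genes of these pathways were taken from 6 lists that together held 114 genes, of which 103 had a probe kept for testing, 1 probe a gene. In CEM PA, FK866 changed 4 of the 103 by the double threshold, 3 higher and 1 lower, which is 3.88% against 5.47% of all genes. DNAJC3, an ATF6 target and cochaperone of the endoplasmic reticulum, rose by 1.11 (SE 0.16, limma adjusted p = 0.0132), and it was the 1 of 15 ATF6 targets past the test. GADD45G, a stress-induced activator of the JNK and p38 cascades, was well above background on 2 of the 3 mock arrays and on neither treated array. With the treated arrays raised to the lowest signal well above background, it was at least 1.51-fold lower. Its call and its limma adjusted p of 0.0489 came from the measured values below that level, and do not test this bound. GADD45G was kept for testing only through CEM RES mock. MAP3K2, a kinase upstream of JNK, rose by 1.14 (SE 0.24, limma adjusted p = 0.0575) and DUSP10, a phosphatase that switches off JNK and p38, by 1.16 (SE 0.29, limma adjusted p = 0.099), both only by the double threshold. None of the 21 tested bZIP relatives, ATF3, ATF4 and FOS among them, was called, nor any of the 17 CREB, ATF2 and AP-1 targets.

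In CEM RES, FK866 changed none of the 103 by the double threshold, against 1.34% of all genes. The interaction called 4 of them, 1 higher and 3 lower, against 6.74% of all genes. DNAJC3 passed the adjusted test as well, with a difference of -1.37 (SE 0.20, limma adjusted p = 0.0277).

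**Figure D5:**
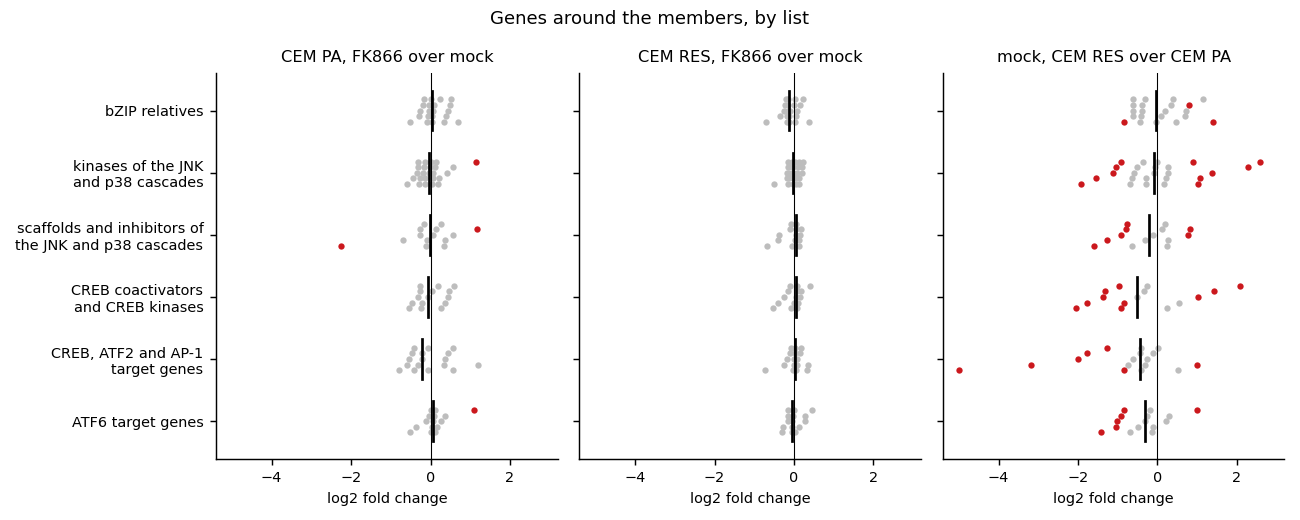
Log2 fold change (horizontal axes) of each tested gene of the 6 lists for FK866 over mock in each line and for CEM RES over CEM PA in mock. Red points passed the double threshold, grey points did not, and black bars are list medians. Called genes number 3 higher and 1 lower in the left panel, where the GADD45G value at the far left is against arrays not well above background, none in the middle and 15 higher and 27 lower in the right panel, where the same holds for PDE4D at the far left.

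Between lines in mock, 15 of the 103 were called as higher in CEM RES and 27 as lower, or 40.8% against 34.6% of all genes (17.6% higher and 17.0% lower). The counts of the 6 lists that follow stand against these shares. Among 15 CREB coactivators and CREB kinases 3 were higher and 7 lower in CEM RES, with a median log2 fold change of -0.50 against 0.04 over all genes. EP300, a histone acetyltransferase that binds phosphorylated CREB, was higher by 2.08 (SE 0.33, limma adjusted p = 0.000358). The CREB coactivator CRTC1 was lower by a log2 fold change of -2.06 (SE 0.28, limma adjusted p = 0.000138), and SIK3, a kinase that holds these coactivators in the cytoplasm, by -1.78 (SE 0.20, limma adjusted p = 3.17e-05). PRKACB, a catalytic subunit of protein kinase A, was higher by 1.43 (SE 0.16, limma adjusted p = 3.41e-05).

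Among 17 tested CREB, ATF2 and AP-1 targets 1 was higher and 6 lower in CEM RES mock, with a median of -0.43. The cell cycle gene CCNA2 was the higher one, at 1.00 (SE 0.16, limma adjusted p = 0.000465). PDE4D, a phosphodiesterase that degrades cAMP, was well above background on all CEM PA arrays and on no CEM RES array, and was kept for testing only through CEM PA. With the CEM RES mock arrays raised to the lowest signal well above background, it was at least 11.1-fold lower there. Its limma adjusted p of 4.1e-06 came from the measured values below that level, and does not test this bound. The immediate early gene EGR1 was lower by a log2 fold change of -3.18 (SE 0.63, limma adjusted p = 0.00144) and the metalloprotease MMP9 by -1.99 (SE 0.21, limma adjusted p = 2.12e-05).

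The 15 ATF6 targets had 1 higher and 5 lower in CEM RES mock, with a median of -0.32. The chaperone HSP90B1 was lower by a log2 fold change of -1.03 (SE 0.13, limma adjusted p = 6.84e-05) and the secreted stress protein MANF by -1.43 (SE 0.22, limma adjusted p = 0.000277), while the degradation adaptor SEL1L was higher by 0.99 (SE 0.16, limma adjusted p = 0.00049). Kinases of the JNK and p38 cascades went both ways, 6 of 25 higher and 5 lower, with a median of -0.09. TAOK1, which acts upstream of both cascades, was higher by 2.59 (SE 0.32, limma adjusted p = 6.16e-05), and MAPK11, which encodes p38 beta, was lower by a log2 fold change of -1.92 (SE 0.25, limma adjusted p = 8.26e-05). Of 14 scaffolds and inhibitors of these cascades 2 were higher and 5 lower, with a median of -0.21. GADD45A was lower by a log2 fold change of -1.60 (SE 0.20, limma adjusted p = 8.01e-05) and the JNK scaffold MAPK8IP3 by -1.28 (SE 0.21, limma adjusted p = 0.000514). Of 21 bZIP relatives 2 were higher and 1 lower, with BATF3, a partner of JUN, higher by 1.40 (SE 0.19, limma adjusted p = 0.000113).

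The genes whose levels ran most like ATF2 probe 1 over the 13 arrays were, among those named on the array, RSF1 (Pearson's r = 0.91), SMAD4 (0.91), CAPRIN1 (0.90) and MOB1A (0.90). The highest value, 0.93, belonged to probe A_33_P3375657, which has no gene symbol. All 5 were picked by this correlation over the same arrays, so that their low CEM PA mock level follows from the choice. With FK866 they were higher by 0.63 to 0.94 on the log2 scale in CEM PA and by 0.05 to 0.38 in CEM RES. The rise in CEM PA is likewise part of what they were picked by, and is no separate result. Within the 8 CEM RES arrays alone the correlations with ATF2 ran from 0.01 to 0.77.

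Promoters were searched for the elements that these factors bind, in RefSeq sequences of GRCh38.p14 that run from 250 bases before to 50 after a gene's start, on both strands. Sequences were found for 9 of the 10 members. The full cAMP response element, TGACGTCA, occurred in a promoter of 2.25% of 27305 genes, and among the members in CREM, in 2 overlapping promoters, 1 of which holds it 50 bases before its start. The core of this element, TGACG, which also lies within the full one, occurred for 28.4% of all genes and for JUN, ATF6, CREM, MAPK8 and ATF7. An AP-1 site, TGAGTCA or TGACTCA, occurred for 6.05% of all genes and for none of the members.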

How the data were processed

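RNA of 13 cultures was hybridised to 1-colour Agilent human arrays. The authors scanned and quantified them with Agilent Feature Extraction 10.7.7.1, and the deposited intensity is the background-subtracted processed signal of each spot. The deposited log2 table of the same arrays served as an alternative. Here log2 intensities, without outlier spots, were quantile normalized over the 13 arrays, and spots of a probe were averaged. Probes well above background on all arrays of at least 1 group were kept (22754 probes). The 4 groups were fitted in 1 model with limma 3.58.1 in R 4.3.3, and p-values were adjusted by Benjamini-Hochberg over all kept probes, or over 17597 genes (the probe of highest mean signal) for the gene lists. Every member probe is reported, and list genes are named among those called. Members and lists were chosen with earlier results of these data known.

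The replicate numbers were taken to pair the samples. Deviations from group means correlated within each number (0.46 and 0.35 in CEM PA, 0.20 to 0.47 in CEM RES), the former over 2 pairs. Those 2 values are not separate, since 2 treated arrays deviate from their mean by opposite amounts. Arrays of each CEM PA pair also shared a scan session. Correlations between unlike numbers were not computed. The labels do not say what a number stands for. The number of arrays limits the precision. Alternatives were the deposited table, normexp background correction with an offset of 50, 75th percentile scaling, and other filters and probe summaries. Further alternatives were blocks for replicate, slide and scan session, array weights, and leaving out each array.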

Additional observations from a re-analysis of the deposited data

Results flagged for a closer look

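A lone array stood apart from the other 3 of its group in 3 of 28 groups of 4 examined, by Dixon's test at the 95% level, which chance alone gives in about 1 of 20 groups. ATF2 probe 2 read 8.36 in CEM RES FK866 replicate 3, with the next array at 8.11. CREM probe 2 read 9.36 in CEM RES mock replicate 2, with the next at 9.13. MAPK9 probe 2 read 8.07 in CEM RES mock replicate 2, with the next at 7.37.

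The response to FK866 differed between the lines on 3 probes by the interaction term in limma, at the double threshold (a log2 difference beyond 0.75 and an unadjusted p under 0.05). The response of CEM RES less that of CEM PA was -0.99 on ATF2 probe 1, -1.13 on ATF2 probe 2 and -1.34 on MAPK8 probe 1, on the log2 scale. The adjusted p were 0.227, 0.206 and 0.0739, and 0.0379, 0.0313 and 0.0363 with the replicate number as a block.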

How the results depend on the processing

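Of 70 probe results, 17 passed the double threshold. Over their 443 alternatives 422 stayed past it, 21 fell under it and none changed sign. Over the 1355 alternatives of the others, 56 had the opposite sign and 9 passed the threshold. The cause of these changes was not tested. The count of 4 member calls in CEM PA became 2 with normexp, 2 with 1 probe a gene and 1 with the mean of a gene's probes (3 to 5 leaving out single arrays). The 7 between lines in mock became 8 under 75th percentile scaling, 5 with 1 probe a gene, 4 with normexp and 4 with the mean of probes (5 to 7). The 3 of the interaction became 1 with normexp and 1 with the mean of probes (1 to 5). With the replicate block the double threshold called 3 in CEM PA, 0 in CEM RES, 7 and 3 between lines and 3 in the interaction. By adjusted p the block changed the calls given in the report and no other. In CEM PA, array weights passed 4 members by adjusted p, the filter on all 13 arrays 2, an intensity trend 2, normexp 1 and the scan session block 1. With only the CEM PA arrays fitted, 0 members passed it, and 3 of all probes did. In the interaction, array weights passed MAPK8 probe 1 (-1.43, adjusted p = 0.0261). Adjusted p for ATF2 in CEM PA ranged over all alternatives from 0.0101 to 0.412 on probe 1 and from 0.0113 to 0.450 on probe 2. With normexp, MAPK8 probe 1 gave 0.48 and MAPK9 probe 2 gave 0.44 in CEM PA. ATF2 gave 0.69 and 0.57 and MAPK9 probe 2 gave 0.73 between lines in mock. The interaction gave -0.75 on ATF2 probe 2 and -0.73 on MAPK8 probe 1. The normexp offset of 50 by itself shrinks fold changes of dim probes, and its share in these values was not tested. The interaction was not run with only the groups compared, and a scan session block could not be fitted within CEM RES.

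Values that changed sign, none past the threshold, were the following. In CEM PA the replicate block gave -0.022 for CREM probe 1 and -0.035 for MAPK9 probe 1, and the slide block gave -0.037 for CREM probe 2, -0.047 for ATF6 and -0.0097 for MAPK9 probe 1. In CEM RES array weights gave 0.063 for ATF1 and -0.029 for ATF2 probe 2, which was -0.020 with the 75th percentile, and JUN was 0.0075 in the deposited table. Between lines in mock ATF6 was 0.012 with array weights, and MAPK8 probe 3 was 0.20 with the 75th percentile and 0.044 with normexp. Between lines with FK866, MAPK8 probe 1 was -0.022 in the deposited table, MAPK8 probe 2 was 0.18 with the 75th percentile and MAPK9 probe 1 was 0.14 with the mean of probes. In the interaction CREM probe 2 was -0.029 with normexp.

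Leaving out single arrays also turned the sign of values near 0. In CEM PA the ranges were -0.022 to 0.35 for CREM probe 1, -0.097 to 0.22 for JUN, -0.22 to 0.0039 for MAPK8 probe 3, -0.27 to 0.64 for MAPK9 probe 1 and -0.13 to 0.31 for MAPK14. In CEM RES they were -0.0057 to 0.14 and -0.090 to 0.14 for ATF2 probes 1 and 2, -0.12 to 0.060 for ATF1, -0.18 to 0.0069 for ATF6 and -0.28 to 0.14 for JUN. Between lines in mock they were -0.13 to 0.054 for ATF6, -0.12 to 0.098 for MAPK8 probe 3 and -0.059 to 0.49 for MAPK9 probe 1. With FK866 they were -0.50 to 0.085 and -0.60 to 0.085 for ATF2 probes 1 and 2, -0.19 to 0.28 and -0.22 to 0.033 for MAPK8 probes 1 and 2, and -0.70 to 0.22 for MAPK9 probe 1. In the interaction they were -0.080 to 0.30 and -0.020 to 0.12 for CREM probes 1 and 2, -0.34 to 0.073 for JUN and -0.86 to 0.051 for MAPK9 probe 1.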
